A study of Mus musculus with 20 samples.

Results

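Trp63, Grhl3, Ovol1, Klf4, Perp, Dsc1, Pkp1, Evpl and Ppl are 9 genes of the surface epithelium, 4 that regulate its layering and 5 that build its desmosomes and cornified envelope. They were chosen by gene symbol: every probe set whose only annotated symbol was one of these names was taken, which gave 15 of the 45101 probe sets on the array and 9 of the 18193 genes with a usable probe set. All 9 were among the 14044 genes tested. The samples were whole C57BL/6 mouse embryos without the amnion, wild type, specific-pathogen free and of mixed sex, collected daily from E7.5 to E10.5 and then every 2 days from E12.5 to E18.5, 8 stages in all. No group carried a mutation or a treatment. RNA of several embryos was pooled for each sample and read on an Affymetrix whole-genome expression array, 3 arrays at each stage up to E10.5 and 2 at each stage from E12.5, 20 in all. The series describes the arrays of a stage as biological replications, and p-values here measure how far such pools differ.

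The epidermis starts as a single sheet of surface ectoderm, stratifies into a basal layer and suprabasal layers, and before birth forms a barrier of cross-linked protein and lipid. p63, encoded by Trp63, commits the ectoderm to stratification, and grainyhead-like 3, OVOL1 and KLF4 act in closure of the epithelium, in the exit of its cells from proliferation and in barrier formation. Desmosomes rivet neighbouring keratinocytes together: cadherins such as desmocollin 1 span the gap, plakophilins and plakins tie them to keratin filaments, and envoplakin and periplakin also scaffold the cornified envelope.

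The main pattern was a late rise of all the genes but Grhl3, on top of different early histories. Klf4 and Perp were high at E7.5, fell at E8.5 and rose again after mid-gestation. Ovol1 stood near the middle of the array at E7.5, fell at E8.5 and rose late, but its second probe set did not show that fall. Trp63 rose from E7.5 to E9.5 and again, more gently, between E12.5 and E18.5. Dsc1 and Pkp1 lay near the bottom of the array up to E10.5 and reached its top 5% by E18.5. Grhl3 fell at E9.5, a call lost under 5 of 16 alternatives. Its E10.5 arrays against those of E7.5, and its E18.5 arrays against those of E12.5, gave no called change.

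Values are MAS5 signals on a linear scale, with the arrays scaled to a trimmed mean of 500. Changes are differences of log2(signal + 25.9), later stage minus earlier, each ± the standard error (SE) that limma gave. This scale understates the change of a dim gene. A gene is said to have risen or fallen where the adjusted p was below 0.05 and the change at least 2-fold. Shares of all genes count calls, and no such share was taken at an unadjusted p. The arrays formed 2 sets, which the labels do not name: a spiked control transcript (dap, middle probe set) read 50.8 to 119 on the 12 early arrays, up to E10.5, and 1812 to 2571 on the 8 late arrays, from E12.5. Array medians were 67.2 to 91.1 in the first set and 156 to 178 in the second. Between E10.5 and E12.5 stage and array set cannot be told apart, and the other steps stay within a set. In RNA of whole embryos, more cells of a type and more RNA per cell cannot be told apart either. Signals of different genes come from different probes and are not compared.

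Promoter sequence was matched for Klf4 and Grhl3 in a RefSeq table of build GRCm38.p6. These 2 are shown because no other of the 9 genes was matched. Klf4 read 907 to 3398 on the second array set against 55.3 to 470.2 on the first, and Grhl3 read 157 to 291 against 82.3 to 279. That contrast crosses the gap between the array sets, and its link to the sequences was not tested. Each line gives the 250 bases before the transcription start, on the minus strand of chromosome 4, read 5′ to 3′. Capitals mark GGGCGG, the GC box, and CACCC, a core of Krüppel-like factor sites, on either strand.
Klf4 promoter, chr4:55532476-55532725: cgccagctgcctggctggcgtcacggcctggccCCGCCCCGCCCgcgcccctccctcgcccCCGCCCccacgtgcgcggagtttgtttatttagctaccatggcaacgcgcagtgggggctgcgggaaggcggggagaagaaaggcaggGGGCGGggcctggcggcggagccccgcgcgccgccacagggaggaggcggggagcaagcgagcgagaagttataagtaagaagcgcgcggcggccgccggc
Grhl3 promoter, chr4:135573633-135573882: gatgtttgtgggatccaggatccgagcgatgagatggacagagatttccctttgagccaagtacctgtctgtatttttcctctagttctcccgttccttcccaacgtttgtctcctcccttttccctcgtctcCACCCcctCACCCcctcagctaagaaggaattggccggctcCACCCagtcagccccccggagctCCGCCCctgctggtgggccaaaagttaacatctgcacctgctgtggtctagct
The Klf4 window was 74.0% G and C, a share at or above that of 95.4% of 32851 promoters of the same length, whose median was 52.4%. The Grhl3 window was 56.0% G and C.

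GGGCGG occurred 4 times in the Klf4 window, with 2 of the matches overlapping by 1 base, and 1 time in the Grhl3 window. This motif was present in 32.7% of all the promoters. CACCC occurred 3 times in the Grhl3 window and 0 times in the Klf4 window, against 52.0% of promoters with a match. The Klf4 window also held 1 match each of CACGTG (6.02% of promoters), an E-box, and of GCCNNNGGC (13.7%), the AP-2 core, neither overlapping another match. AACCGGTT (0.116%), the palindrome bound by grainyhead-like factors, and TATAAA (12.4%) were found in neither window. Both strands were searched for each motif.

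**Figure D1:**
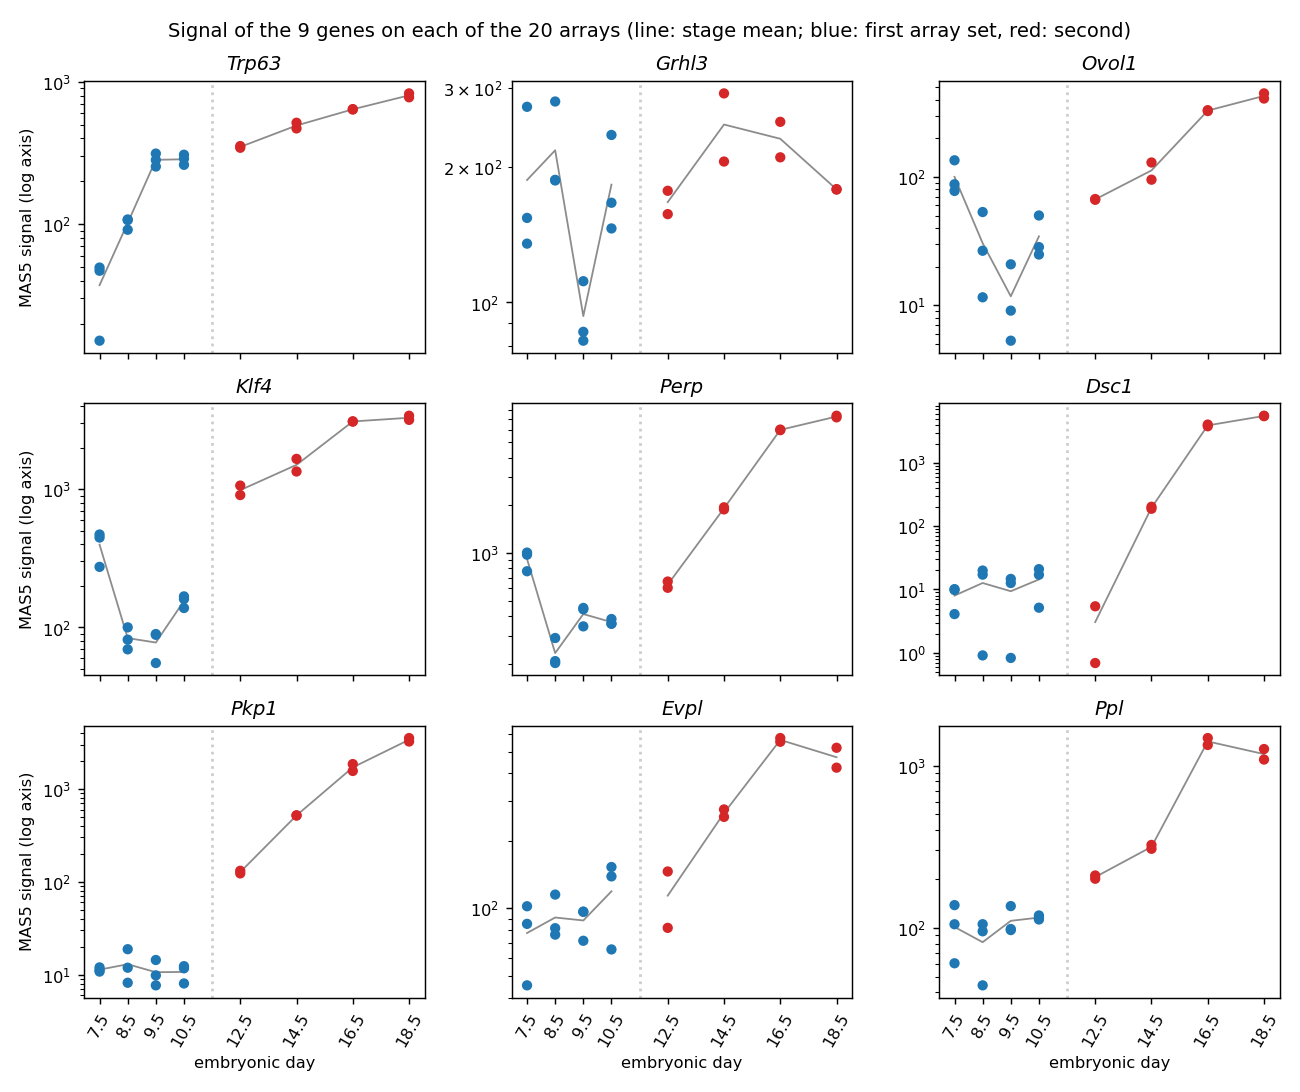
MAS5 signal (log axis, arbitrary units) of each of the 9 genes on each array against embryonic day, with points for arrays and lines for stage means, blue for the 12 early arrays and red for the 8 late ones. Dsc1 climbs from 0.69 and 5.43 at E12.5 to 5461 and 5551 at E18.5, while Grhl3 stays between 82.3 and 291 throughout.

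Among the regulators, Trp63 was the gene that rose during the first days. Its signal was 49.5, 15.2 and 47.0 on the E7.5 arrays, 107, 108 and 91.3 at E8.5, 282, 254 and 313 at E9.5 and 307, 288 and 261 at E10.5. On the second array set it was 354 and 344 at E12.5, 516 and 471 at E14.5, 643 and 639 at E16.5 and 829 and 779 at E18.5. Every E8.5 array lay above every E7.5 array and every E9.5 array above every E8.5 array, while the arrays of E9.5 and E10.5 overlapped. Trp63 rose at E8.5 (log2 change 1.07 ± 0.18, adjusted p = 9.28e-05, limma) and at E9.5 (1.27 ± 0.18, adjusted p = 4.4e-05). At E10.5 the difference from E9.5 was 0.01 ± 0.18. None of the single steps after E12.5 passed the threshold for Trp63 (0.47 ± 0.22, 0.36 ± 0.22 and 0.31 ± 0.22), although its arrays did not overlap at any of them. Over the whole span from E12.5 to E18.5 it rose by 1.15 ± 0.22 (adjusted p = 2.4e-04).

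The first rise of Trp63 rests on how the gene is read. Without E7.5 replicate 2, the array at 15.2, the change at E8.5 was 0.78 and under 2-fold (adjusted p = 2.44e-04, with 3.75e-05 to 0.0845 over all alternatives). The 3 other Trp63 probe sets were dimmer, at 1.53 to 106 up to E10.5, and with the mean over all 4 the changes at E8.5 and E9.5 were 0.45 and 0.77, neither called. With a constant 4 times larger they were 0.55 and 0.91, both under 2-fold. From E7.5 to E10.5 the brightest probe set rose by 2.35 ± 0.18 (adjusted p = 8.99e-10), and fitted singly the others changed by 1.19 ± 0.39, 1.34 ± 0.35 and 0.25 ± 0.36. From E12.5 to E18.5 the 4 probe sets had the same sign (1.15, 0.92, 0.84 and 1.21).

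Grhl3, which is needed for neural tube closure as well as for the skin barrier, followed a different course from the others. Its E7.5 arrays read 272, 154 and 135, its E8.5 arrays 279, 187 and 187, its E9.5 arrays 111, 86.1 and 82.3 and its E10.5 arrays 146, 166 and 235. Later it read 177 and 157 at E12.5, 206 and 291 at E14.5, 210.0 and 252 at E16.5 and 179 and 178 at E18.5. The 3 E9.5 arrays were the lowest of the first array set, where the other arrays lay between 135 and 279. Grhl3 fell at E9.5 (-1.02 ± 0.23, adjusted p = 0.00391), just past 2-fold, and at E10.5 it was higher by 0.79 ± 0.23 (adjusted p = 0.021), which is under 2-fold. The call at E9.5 was lost without E8.5 replicate 1 (-0.84), E9.5 replicate 2 (-0.98) or E9.5 replicate 3 (-0.95), after quantile normalization (-0.92) and with a constant 4 times larger (-0.70), each under 2-fold. Between E7.5 and E10.5 the difference was 0.00 (95% interval -0.48 to 0.49) and between E12.5 and E18.5 it was 0.08 (-0.51 to 0.68), intervals that leave room for changes of up to about those sizes.

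Ovol1 and Klf4 were higher at E7.5 than at E8.5 and E9.5. Ovol1, a zinc finger repressor of progenitor genes, read 87.7, 77.8 and 135 at E7.5, 26.6, 53.2 and 11.5 at E8.5, 5.28, 9.06 and 20.8 at E9.5 and 24.8, 50.03 and 28.4 at E10.5. No E8.5 array reached the lowest E7.5 array, and Ovol1 fell, with a log2 change of -1.20 ± 0.28 (adjusted p = 0.00171). Its second probe set did not show this fall (0.02 ± 0.39, signals of 21.7 to 99.9 at E7.5 and 24.2 to 89.6 at E8.5), and the mean of the 2 probe sets changed by -0.59, under 2-fold. The fall was also under 2-fold without E8.5 replicate 3 (-0.94) and with a constant 4 times larger (-0.60). By E10.5 the probe sets were alike against E7.5, at -1.06 ± 0.28 and -1.14 ± 0.39. The first of these was called (adjusted p = 0.00272), and not without E7.5 replicate 3 (-0.87), E10.5 replicate 1 (-0.95) or E10.5 replicate 3 (-0.995), nor with a constant 4 times larger (-0.56).

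Klf4, which promotes barrier acquisition and is also a pluripotency factor, read 274, 470.2 and 447 at E7.5, then 69.4, 81.6 and 100.2 at E8.5, 88.5, 55.3 and 89.6 at E9.5 and 161, 168 and 138 at E10.5. The E7.5 arrays stood apart from all the later arrays of the set. At E8.5 Klf4 fell, with a log2 change of -1.92 ± 0.18 (adjusted p = 3.29e-08), a 3.79-fold difference, and its second probe set changed by -1.03 ± 0.25. At E10.5 it was above E9.5 on every array, by 0.82 ± 0.18 (adjusted p = 0.0025), which did not reach 2-fold. It was then still below E7.5 (-1.19 ± 0.18, adjusted p = 8.13e-06), though under 2-fold with a constant 4 times larger (-0.93).

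On the second array set Klf4 was far above its early range. It read 1062 and 907 at E12.5, 1657 and 1343 at E14.5, 3080.5 and 3097 at E16.5 and 3398 and 3172 at E18.5. E12.5 lay above E10.5 by 2.48 ± 0.20 (adjusted p = 1.55e-08), or by 2.18 after quantile normalization and 2.23 with arrays scaled by their 75th percentile, and the second probe set by 1.85 ± 0.28. Klf4 rose at E16.5 (1.04 ± 0.22, adjusted p = 0.00358). That call was lost without E14.5 replicate 2 (0.89, adjusted p = 0.0658, with 1.38e-04 to 0.0658 over all alternatives) and with the mean of its 2 probe sets (0.90), the second of which changed by 0.77 ± 0.31. From E16.5 to E18.5 the difference was 0.09 ± 0.22.

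Ovol1 too rose late. Its signal was 66.4 and 67.3 at E12.5, 95.2 and 130 at E14.5, 332 and 326 at E16.5 and 409 and 448 at E18.5. Each stage lay above the one before it with no overlap, and the step to E16.5 was called (1.37 ± 0.34, adjusted p = 0.0127). The E16.5 call of Ovol1 was lost without E14.5 replicate 1 (1.19, adjusted p = 0.136), without either E16.5 array (1.36 and 1.38) or with a constant 4 times smaller (1.51), with adjusted p from 2.04e-04 to 0.136 over all alternatives. Over the span to E18.5 Ovol1 rose by 2.29 ± 0.34 (adjusted p = 1.16e-05), with 1.72 ± 0.48 on the second probe set, and Klf4 by 1.72 ± 0.22 (adjusted p = 1.56e-06), with 1.24 ± 0.31.

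**Figure D2:**
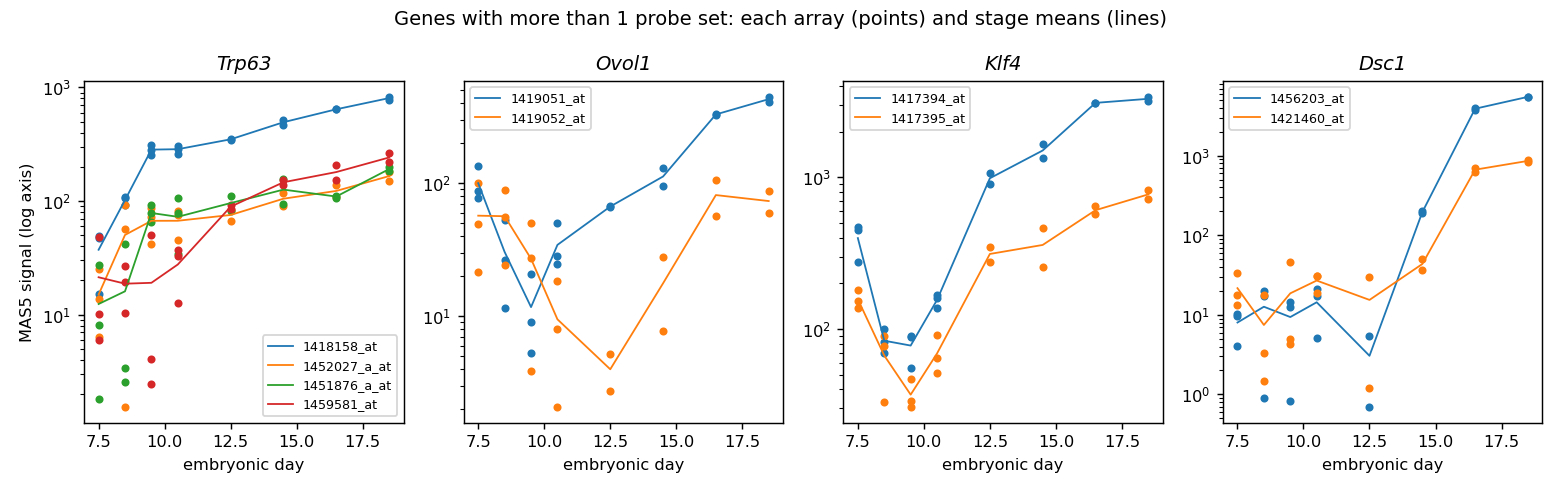
MAS5 signal (log axis, arbitrary units) on each array (points) and stage mean (lines) against embryonic day for the 4 genes with more than 1 probe set, 1 colour a probe set. The second probe set of Ovol1 stays between 21.7 and 99.9 at E7.5 and E8.5, where the first falls, and both probe sets of Dsc1 climb at E16.5.

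Among the desmosome genes Perp had the early fall in common with Klf4. Perp, a tetraspan membrane protein of desmosomes and a p63 target, read 768, 976 and 1006 at E7.5, 208, 291 and 203 at E8.5, 345, 442 and 451 at E9.5 and 359, 384 and 358 at E10.5. The E7.5 arrays were all above the rest of the first set. At E8.5 Perp fell, with a log2 change of -1.87 ± 0.13 (adjusted p = 3.07e-10), a 3.64-fold difference. At E9.5 every array was above those of E8.5, by 0.76 ± 0.13 (adjusted p = 1.86e-04) and under 2-fold. Later Perp read 661 and 604 at E12.5, 1884 and 1942 at E14.5, 6003 and 5951 at E16.5 and 7338 and 7168 at E18.5. It rose at E14.5 (1.56 ± 0.15, adjusted p = 1.94e-06) and by about as much at E16.5 (1.63 ± 0.15, adjusted p = 5e-07). These steps differed by 0.07 ± 0.27, with a 95% interval of -0.48 to 0.63. The step from E16.5 to E18.5 was 0.28 ± 0.15 and was smaller than the step before it, with a difference of -1.35 ± 0.27 (adjusted p = 0.00952). That call was lost without E16.5 replicate 1 (-1.34) or replicate 2 (-1.365).

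Dsc1, the desmocollin of the upper epidermal layers, had the largest late rise of the 9 genes. Its signal was 0.83 to 21.0 on the 12 early arrays and 0.69 and 5.43 at E12.5, where it stood at or below the 5.8th percentile of its array. It then read 188 and 203 at E14.5, 3785 and 4023 at E16.5 and 5461 and 5551 at E18.5. At E18.5 it stood at the 97.5th and 97.6th percentile. Dsc1 rose at E14.5 (2.94 ± 0.30, adjusted p = 2.82e-06) and at E16.5 (4.15 ± 0.30, adjusted p = 1.46e-08), and the step to E18.5 was 0.49 ± 0.30. The step to E18.5 was smaller than that to E16.5, with a difference of -3.66 ± 0.52 (adjusted p = 4.77e-04), a call lost with a constant 4 times smaller (adjusted p = 0.147, with 3.38e-09 to 0.147 over all alternatives). The step to E16.5 exceeded that to E14.5 by 1.21 ± 0.52, which did not pass (adjusted p = 0.543).

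Because Dsc1 started from signals below the added constant, its size depends on that constant and on the probe set. The rise from E12.5 to E18.5 was 7.58 ± 0.30 (adjusted p = 2.06e-13) and between 5.72 and 9.22 over the alternatives. At E14.5 it was 4.45 with a constant 4 times smaller, 1.49 with a constant 4 times larger and 1.89 with the mean of its 2 probe sets. The second probe set alone gave 0.83 ± 0.41 at E14.5 (signals of 36.6 and 50.6), 3.33 ± 0.41 at E16.5 and 4.52 ± 0.41 from E12.5 to E18.5.

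Pkp1, plakophilin 1, which clusters desmosomal cadherins in suprabasal cells, climbed through all the late stages. Its signal was 7.66 to 18.8 on the 12 early arrays, at the 13.4th to 23.1st percentile. It read 131 and 123 at E12.5, 520.0 and 517 at E14.5, 1854 and 1563 at E16.5 and 3535 and 3243 at E18.5. Each of these stages lay above all earlier ones. Pkp1 was higher at E12.5 than at E10.5 by 2.07 ± 0.20 (adjusted p = 1.67e-07), by 1.57 after quantile normalization, by 1.88 with arrays scaled by their 75th percentile and by 1.01 with a constant 4 times larger. It rose at E14.5 (1.83 ± 0.22, adjusted p = 1.96e-05) and at E16.5 (1.67 ± 0.22, adjusted p = 4.54e-05). The step to E18.5 was 0.98 ± 0.22 (adjusted p = 0.00438), a 1.97-fold change that stopped just short of the required size. The whole change from E12.5 was 4.48 ± 0.22 (adjusted p = 4.28e-12).

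Dsc1 and Pkp1 exceeded the array median on 0 of the 12 early arrays and on 6 of the 8 late ones. They entered the test only through the late stages, so that some difference in them was fixed by the filter on dim genes. The other 7 genes exceeded the median on at least 3 early and at least 4 late arrays.

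The plakins envoplakin (Evpl) and periplakin (Ppl), which bind each other in the early cornified envelope, had no called change up to E10.5. Evpl read 102, 85.3 and 45.4 at E7.5, 81.6, 76.4 and 115 at E8.5, 96.5, 71.7 and 96.7 at E9.5 and 65.6, 153 and 139 at E10.5. Ppl read 60.5, 138 and 105 at E7.5, 105, 95.2 and 44.2 at E8.5, 96.9, 98.3 and 136 at E9.5 and 113, 119 and 115 at E10.5. Arrays of neighbouring early stages overlapped for both genes. Evpl then read 146 and 81.8 at E12.5, 256 and 276 at E14.5, 575 and 554 at E16.5 and 424 and 521 at E18.5. Ppl read 210.3 and 201 at E12.5, 325 and 307 at E14.5, 1480.3 and 1342 at E16.5 and 1091 and 1267 at E18.5.

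Evpl and Ppl were highest at E16.5, and for each both E18.5 arrays were below both E16.5 arrays. Those last differences were -0.25 ± 0.32 for Evpl and -0.26 ± 0.28 for Ppl and did not pass the test. Ppl rose at E16.5 by 2.07 ± 0.28 (adjusted p = 4.94e-05). Its step to E14.5 was 0.56 ± 0.28, smaller by 1.51 ± 0.49, which did not pass (adjusted p = 0.242), and its step to E18.5 was smaller than that to E16.5, with a difference of -2.33 ± 0.49 (adjusted p = 0.0148). That call was lost under 4 of 16 alternatives, which were either E16.5 array or E18.5 replicate 1 left out and a constant 4 times smaller (adjusted p from 3.76e-05 to 0.182 over all). Evpl rose at E14.5 (1.10 ± 0.32, adjusted p = 0.0324) and at E16.5 (1.02 ± 0.32, adjusted p = 0.05, just inside the threshold). Without E12.5 replicate 2, the lower of its unequal arrays, the E14.5 change of Evpl was 0.76 (adjusted p = 0.348, with 0.00808 to 0.348 over all alternatives). The E14.5 call was lost under 6 of 14 alternatives, also without either E14.5 array, after quantile normalization and with a smaller or larger constant. Its E16.5 call was lost under 10 of 14 alternatives (adjusted p from 8.05e-04 to 0.226). Over the 4 late stages Evpl rose by 1.87 ± 0.32 (adjusted p = 6.5e-05) and Ppl by 2.38 ± 0.28 (adjusted p = 6.38e-07).

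**Figure D3:**
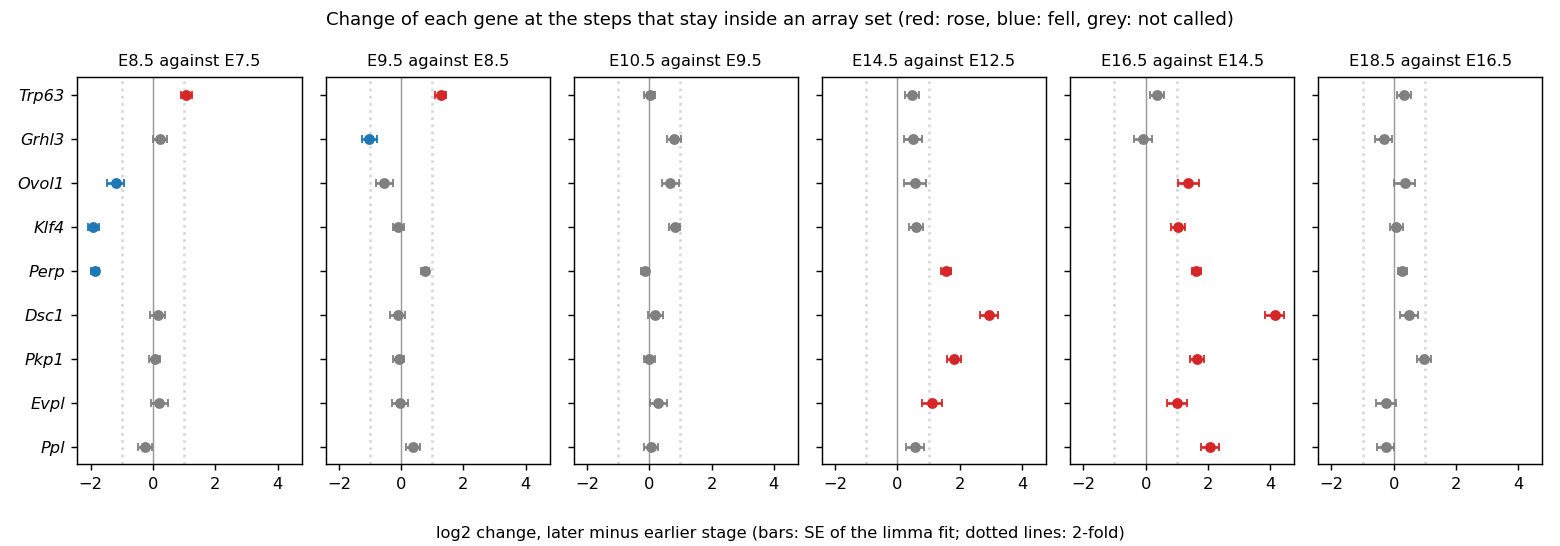
Change of each gene between consecutive stages of an array set, as the difference of log2(signal + 25.9) ± SE from limma, in red where it rose, blue where it fell and grey where it was not called. Trp63 (1.07) stands to the right and Klf4 (-1.92) and Perp (-1.87) to the left at E8.5, and at E16.5 the points run from Grhl3 (-0.08) to Dsc1 (4.15).

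Counted over the 9 genes, the calls fell into an early and a late cluster. At E8.5, 1 gene rose (Trp63) and 3 fell (Ovol1, Klf4 and Perp), where 6.27% of all genes tested rose and 4.93% fell. At E9.5, 1 rose (Trp63) and 1 fell (Grhl3), against 2.49% and 1.67% of all genes. At E10.5, 0 rose and 0 fell by limma, against 3.14% and 0.513%, and at an unadjusted p under 0.05 there were 3 higher (Grhl3, Ovol1 and Klf4) and 0 lower. For E10.5 against E7.5, 1 rose (Trp63) and 3 fell (Ovol1, Klf4 and Perp), against 16% and 7.49% of all genes. The share of rises among all calls in that comparison was 68.2%, or 60% after quantile normalization and 56.3% with arrays scaled by their 75th percentile, and the median change of all genes was 0.11, 0.01 and -0.06 in turn. The corresponding share at E10.5 against E9.5 was 86%, or 75.5% after quantile normalization. No called change of the 9 genes turned its sign under either scaling.

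Across the gap between the array sets, E12.5 against E10.5, 2 genes rose (Klf4 and Pkp1) and 0 fell, with 4 higher and 0 lower at an unadjusted p under 0.05. Of all genes, 10.6% rose and 2.02% fell. The split of all calls depended on the scaling here, with 83.9% rises as deposited, 58.4% after quantile normalization and 51.5% with scaling by the 75th percentile, while the median change of all genes moved from 0.12 to -0.11 under both.

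Later, at E14.5, 4 genes rose (Perp, Dsc1, Pkp1 and Evpl) and 0 fell, against 3.28% and 0.37% of all genes. Dsc1 and Pkp1 passed the filter on dim genes only through late stages. Some difference in them was so fixed in advance, here, at E16.5 and from E12.5 to E18.5. Apart from them, the genes that rose were Perp and Evpl at E14.5, and Ovol1, Klf4, Perp, Evpl and Ppl at E16.5. The median change of the 9 genes at E14.5 was 0.59, where that of all genes was 0.00. At E16.5, 7 rose (all but Trp63 and Grhl3) and 0 fell, against 3.61% and 0.178%. Here the median change was 1.37, against -0.02 for all genes. With any 1 of the E14.5 or E16.5 arrays left out the count was 5.

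At E18.5, 0 rose and 0 fell by limma, against 3.52% and 0.769% of all genes. At an unadjusted p under 0.05, 1 gene was higher (Pkp1) and 0 were lower, and Pkp1 was called without E16.5 replicate 1 or E18.5 replicate 2. The median change was 0.28, against -0.05 for all genes. For E18.5 against E12.5, 8 rose, with Grhl3 the exception, and 0 fell, against 15.2% and 6.44% of all genes, and the median was 2.29, against -0.09. The falls counted as 0 at E14.5, E16.5 and over that span were also 0 at an unadjusted p under 0.05.

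The change of pace was tested as a difference between neighbouring steps. From E14.5 to E16.5 against E12.5 to E14.5, 0 of the 9 genes had a larger and 0 a smaller later step by limma, where 0.491% and 0.206% of all genes did. At an unadjusted p under 0.05, 2 were larger (Dsc1 and Ppl) and 0 smaller. The share of larger steps among all calls was 70.4%, or 56% after quantile normalization. From E16.5 to E18.5 against E14.5 to E16.5, 3 had a smaller later step (Perp, Dsc1 and Ppl) and 0 a larger one, against 1.03% and 0.427% of all genes. Without E16.5 replicate 1 or 2 only Dsc1 was called.

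**Figure D4:**
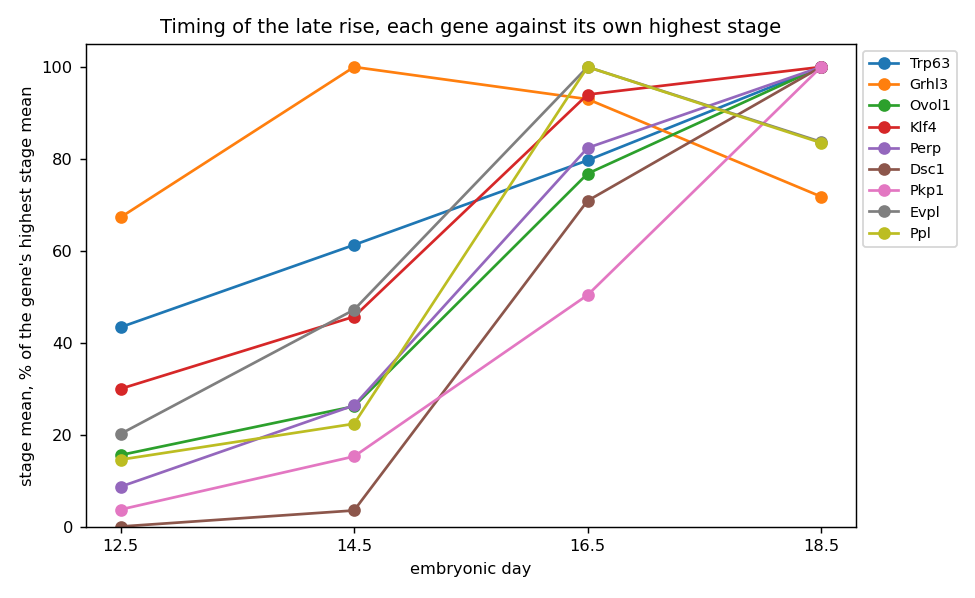
Stage mean of each gene from E12.5 to E18.5, as a percentage of that gene's own highest stage mean over the series, against embryonic day. At E14.5 Trp63 stands at 61.3% and Dsc1 at 3.55%, and at E16.5 Pkp1 stands at 50.4% while Evpl and Ppl are at 100%.

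The late stages were also measured against the highest stage mean of each gene. Trp63 was at 43.4% at E12.5, 61.3% at E14.5 and 79.7% at E16.5 of its E18.5 mean. Klf4 was at 30.0%, 45.7% and 94.0%. Perp and Ovol1 were close to each other at E14.5, with 26.4% and 26.2%, and at E16.5, with 82.4% and 76.8%. Among the structural genes, Evpl was at 47.2% at E14.5, Ppl at 22.4%, Pkp1 at 15.3% and Dsc1 at 3.55%. These shares describe means of 2 arrays and were not tested between genes.

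The other genes of these systems were read from lists of known members, whose medians stand against -0.09 for all genes from E12.5 to E18.5 and 0.11 from E7.5 to E10.5. The listed genes passed the same filter on dim genes as Dsc1 and Pkp1. For any that passed only through the stages where they are high, some difference was fixed in advance. How many did so was not determined, and they remain in the counts given here. Of 23 other epidermal regulators tested, 11 rose and 2 fell from E12.5 to E18.5 (median 0.99), where 15.2% of all genes rose and 6.44% fell, so that the falls were near the background. Cebpa, a factor of suprabasal differentiation and of liver and fat, rose by 3.10 ± 0.26, Vdr, the vitamin D receptor, by 2.78 ± 0.46 and Grhl1, a relative of Grhl3, by 2.62 ± 0.34. From E7.5 to E10.5, 4 rose and 9 fell (median -0.56), against 16% and 7.49% of all genes, with the rises near the background. Tfap2b, an AP-2 factor of neural crest and ectoderm, rose by 3.88 ± 0.22, and Ripk4, a kinase of keratinocyte differentiation, and Tfap2c changed by -2.46 ± 0.13 and -2.45 ± 0.21. At E8.5 alone 2 rose and 6 fell, against 6.27% and 4.93%.

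Of 10 other desmosome genes tested, 7 rose and 0 fell from E12.5 to E18.5 by limma (median 1.64), where 15.2% and 6.44% of all genes were called. At an unadjusted p under 0.05, a looser threshold, 9 were higher and 0 lower. Dsg1a, a desmoglein of the upper layers, rose from a mean of 9.38 to 1769 (5.67 ± 0.35, adjusted p = 1.02e-10), Dsc3, a basal desmocollin, by 3.47 ± 0.41 and Dsg1b by 3.44 ± 0.37. Dsg1a and Dsg1b are near-identical copies and their signals may mix. In the first days this list moved the other way, with 0 rises and 4 falls from E7.5 to E10.5 (median -0.72), where 16% and 7.49% of all genes were called. At an unadjusted p under 0.05, 0 were higher and 6 lower. Dsg2, the desmoglein of simple epithelia, changed by -2.92 ± 0.11, from 2620 to 324, Pkp2 by -2.12 ± 0.11 and Dsc2 by -1.79 ± 0.18. At E14.5 and again at E16.5, 4 of the 10 rose, against 3.28% and 3.61% of all genes.

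Other plakins and cornified envelope proteins moved mostly at E16.5. From E12.5 to E18.5, 12 of 15 rose (median 2.80), against 15.2% of all genes, and at E16.5 alone 9 of 15 rose, against 3.61%. Flg, filaggrin, which bundles keratin, rose by 8.14 ± 0.35, Lor, loricrin, the main envelope protein, by 5.81 ± 0.24 and Ivl, involucrin, by 5.59 ± 0.36. At E14.5, 2 of the 15 rose, against 3.28% of all genes. From E7.5 to E10.5, 1 rose (Macf1, 1.40 ± 0.10) and 2 fell (Tgm1, -2.41 ± 0.31, and Dsp, -1.22 ± 0.22), where 16% of all genes rose and 7.49% fell.

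Markers of the basal and suprabasal layers were counted as well. Of 11 hemidesmosome and basal genes, 7 rose from E12.5 to E18.5 (median 1.67), against 15.2% of all genes, with the basal keratins Krt15 at 3.55 ± 0.31, Krt14 at 2.90 ± 0.37 and Krt5 at 2.55 ± 0.19. From E7.5 to E10.5, 2 rose, Krt14 by 1.40 ± 0.30 and Krt5 by 1.08 ± 0.15, a count near the 16% of all genes that rose. All 4 suprabasal keratins rose from E12.5 to E18.5 (median 4.89), against 15.2% of all genes, with Krt1 at 7.54 ± 0.35, Krt10 at 5.83 ± 0.17 and Krt2 at 3.94 ± 0.39. At E14.5 and at E16.5, 3 of these 4 rose, against 3.28% and 3.61%. At E18.5 against E16.5, 1 of the 4 rose and 1 fell, against 3.52% and 0.769% of all genes. The summed signal of the suprabasal keratins was 401 to 821 up to E10.5, 789 to 834 at E12.5, 4151 to 4383 at E14.5, 39850 to 51470 at E16.5 and 59920 to 64210 at E18.5.

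**Figure D5:**
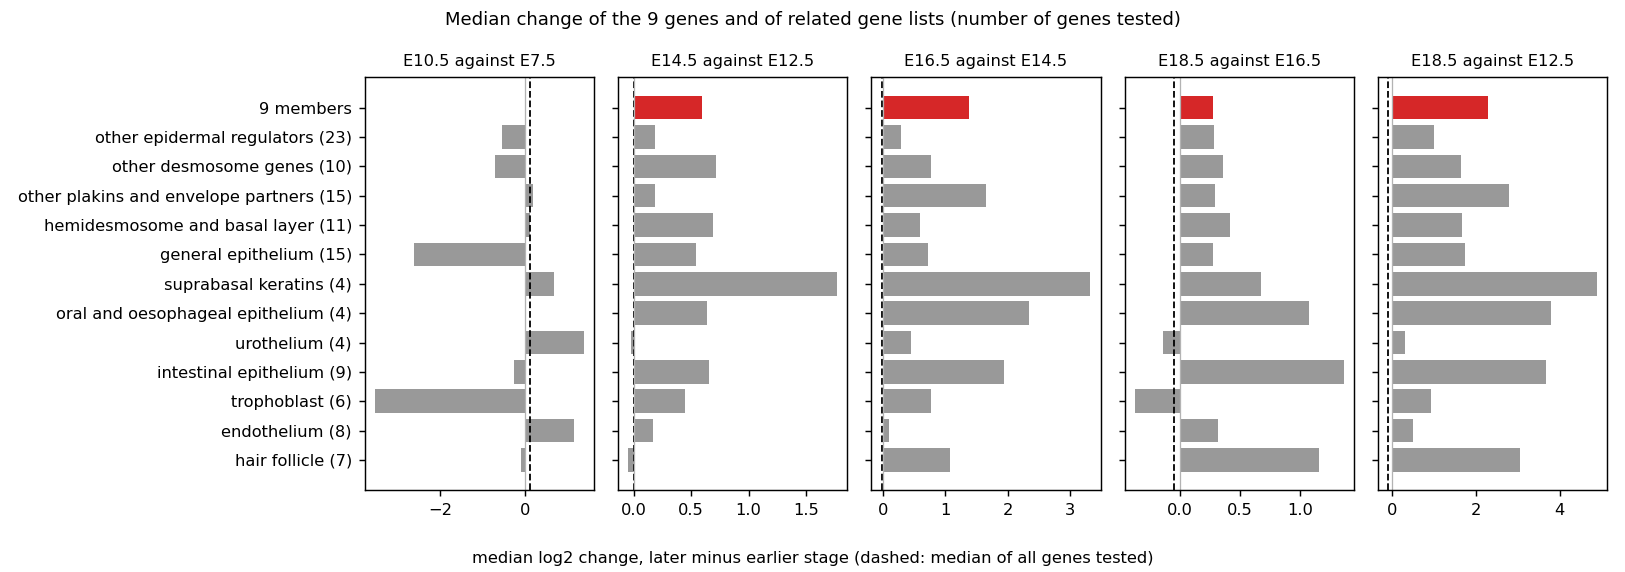
Median log2 change of the 9 genes (red) and of 12 gene lists (grey, number of genes tested in brackets) in 5 comparisons within an array set, with a dashed line at the median of all genes tested and a separate scale for each panel. At E16.5 the medians of the 9 genes (1.37), the suprabasal keratins (3.32) and the intestinal list (1.94) lie to the right of that line, and from E7.5 to E10.5 the general epithelium (-2.62) and trophoblast (-3.53) lists lie far to its left.

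Markers of other tissues moved with the early falls of Klf4, Perp and Ovol1, where 4.93% of all genes fell at E8.5 and 7.49% from E7.5 to E10.5. Of 6 trophoblast genes tested, 4 fell at E8.5 and all 6 fell from E7.5 to E10.5 (median -3.53). The largest falls were those of Elf5 (-5.72 ± 0.35), Ascl2 (-4.99 ± 0.29) and Cdx2 (-4.59 ± 0.31), which is also in the intestinal list. The summed signal of the 7 trophoblast genes measured was 6524 to 7824 at E7.5, 1848 to 2166 at E8.5 and 501 to 583 at E10.5. Of 15 general epithelium genes, 7 fell at E8.5 and all 15 from E7.5 to E10.5 (median -2.62), with Prss8 at -3.58 ± 0.18, Krt8 at -3.23 ± 0.13 and Cldn6 at -3.21 ± 0.13. Their summed signal was 50050 to 55170 at E7.5, 24670 to 29630 at E8.5 and 6674 to 7426 at E10.5. At E10.5 the means of Elf5, Ascl2 and Cdx2 were 27.6, 23.5 and 44.7, and those of Krt8 and Prss8 were 1201 and 116. The part of these tissues in the falls of Klf4, Perp and Ovol1 was not tested.

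Other epithelia moved with the late rises too, in the comparison in which 15.2% of all genes rose and 6.44% fell. For E18.5 against E12.5, 13 of 15 general epithelium genes rose and 1 fell (median 1.74), with Rab25 at 4.83 ± 0.39, Krt19 at 2.89 ± 0.29 and Cldn7 at 2.46 ± 0.13. All 9 intestinal genes rose (median 3.67), including Fabp2 at 7.23 ± 0.27, Lgals4 at 6.12 ± 0.32 and Tff3 at 5.61 ± 0.50, and their summed signal was 373 to 422 at E12.5 and 21430 to 23730 at E18.5. The 4 oral and oesophageal keratins tested rose (median 3.79), with Krt13 at 5.84 ± 0.40, Krt4 at 4.90 ± 0.32 and Krt6a at 2.67 ± 0.50. The summed signal of the 5 measured was 270 to 346 at E12.5 and 7574 to 8346 at E18.5. Of 4 urothelial genes 0 rose and 0 fell by limma over this span (median 0.31), also 0 and 0 at an unadjusted p under 0.05, and their 5 measured genes summed to 881 to 1112 at E12.5 and 1151 to 1409 at E18.5. Klf4, Perp, Evpl and Ppl are also expressed in such epithelia, and the part of these tissues in the late rises was not tested.

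Klf4 is also a gene of endothelium. Of 8 endothelial genes, 4 rose at E8.5, the step at which Klf4 fell, against 6.27% of all genes. From E12.5 to E18.5, 2 of the 8 rose (median 0.49), near the 15.2% of all genes. Their summed signal was 1116 to 1188 at E7.5, 2645 to 3034 at E8.5, 3374 to 3486 at E12.5 and 5307 to 5563 at E18.5, and their part in the Klf4 signal was not tested.

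The profiles closest to those of the 9 genes came from several tissues. Likeness was Pearson's r of log2 values over the 20 arrays, which all genes share, so that the gap between the array sets and the age of the embryo enter every r. Dsc1 was most like Car3 (r = 0.99), a carbonic anhydrase of muscle and fat, and Krt10 (0.99). Pkp1 was most like Myh8 (0.996), the perinatal muscle myosin, and Ahsg (0.994), a plasma protein of fetal liver. Ppl was most like Lgals7 (0.97), the galectin of stratified epithelium, and Hdc (0.97), which makes histamine, and Evpl like Endou (0.96) and Sult1a1 (0.96). Perp was most like Dynlt3 (0.98) and Ptgds (0.97), Klf4 like Lmna (0.98), which encodes lamin A, and Serpinf2 (0.98), and Ovol1 like Rnase4 (0.97) and Fgg (0.96), the fibrinogen gamma chain. Trp63 was most like Cavin3 (0.99) and Fap (0.98), a fibroblast protease. Grhl3 had no close companion among the genes searched: its nearest were Dapk1 (0.75) and Pitpnm2 (0.74). The search left out the 9 genes themselves and symbols of uncharacterised loci.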

How the data were processed

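The deposited values are linear intensity, 1 signal per probe set and array, and the submitters' processing notes name MAS5 as the tool that made them. The MAS5 version and settings and the genome build are not given in the sources used here. The mean of each array without its lowest and highest 2% was 500, so no further scaling was applied. Arrays have no read depth, and their number limits the precision. Gene names came from GEO's platform annotation: 34945 probe sets had 1 symbol, 932 several and 9160 none, beside 64 controls, and 34741 matched a RefSeq Entrez identifier, with 0 renamed.

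Each gene was represented by its probe set with the highest mean log2 value. Genes above the array median on at least 2 arrays were tested on log2(signal + 25.9), the constant being the 25th percentile of an array, taken as the median of the 20. A mean per stage was fitted to all 20 arrays with limma 3.58.1 in R 4.3.3 (lmFit, eBayes with trend, 12 residual degrees of freedom), and p-values, for changes in either direction, were adjusted by Benjamini-Hochberg across the 14044 genes of each comparison. Calls needed an adjusted p below 0.05 and, except for differences between steps, at least 2-fold. The code was tested on simulated data with 200 changed genes.

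The 9 genes, the 12 gene lists and the tests were chosen with earlier results of these data known, so none is independent support for a pattern. The lists overlap, with Dsp, Dst, Plec, Msx2 and Cdx2 each in a pair of them. All 9 are named, with up to 3 called genes a list with the largest change from E7.5 to E10.5 and from E12.5 to E18.5. Also named are the 2 tested genes most correlated with each of the 9, members and symbols of uncharacterised loci left out. Listed genes without a usable probe set are not analysed here. Those too dim were not tested but enter the summed signals. Alternatives changed the scaling (quantile normalization, or the 75th percentile), the constant (4 times smaller or larger), the filter (none, or at the 75th percentile), the choice among a gene's probe sets, the stages fitted and the minimum fold, added the replicate number as a block, or left out each array in turn. Fitting every probe set singly was added after the data were seen.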

Additional observations from a re-analysis of the deposited data

How the results depend on the processing

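Of 34 called changes of the 9 genes, 21 kept their call under every alternative run, 13 lost it under at least 1 and 0 changed sign. Of 352 counts of called genes under alternatives, 326 stayed within 1.5 times. Quantile normalization gave 0 falls at E9.5, 1 rise at E18.5 against E16.5 (Pkp1) and 1 larger step to E16.5 (Ppl). A constant 4 times smaller left 1 smaller step to E18.5 (Perp). A constant 4 times larger gave 0 rises at E8.5, 0 rises and 0 falls at E9.5, 1 fall from E7.5 to E10.5 (Perp) and 2 larger steps to E16.5 (Dsc1 and Ppl). The filter at the 75th percentile, under which Grhl3, Ovol1 and Evpl were not tested, gave 0 falls at E9.5 and 6 rather than 8 rises from E12.5 to E18.5. The mean of all probe sets gave 0 rises at E8.5 and 0 at E9.5. Fits of only the stages compared gave 2 larger steps to E16.5 and 5 smaller steps to E18.5. With no minimum fold there were 2 rises at E9.5, 2 at E10.5, 4 at E12.5 and 1 at E18.5. With each array left out in turn, rises at E8.5 ranged from 0 (without E7.5 replicate 2) to 1, falls at E9.5 from 0 to 1, rises at E18.5 against E16.5 from 0 to 1 and smaller steps to E18.5 from 1 to 3. The cause of these changes was not tested, beyond the fewer genes or arrays of some settings. Counts over all genes moved by over 1.5 times as well: from E10.5 to E12.5, 1484 rises became 756 after quantile normalization and 937 with scaling by the 75th percentile, and 284 falls became 539 and 884. After quantile normalization falls at E14.5 went from 52 to 106 and at E18.5 against E16.5 from 108 to 170. Larger steps to E16.5 went from 69 to 144 and smaller ones from 29 to 113 (18 with scaling by the 75th percentile), and for E18.5 larger steps went from 60 to 130 and smaller ones from 144 to 275. The replicate numbers were not treated as pairs in the main fit. Deviations of same-numbered arrays correlated at -0.046 to 0.282, and with 3 pairs 3 or 4 of 6 arrays correlated best with their own number. At stages with 2 arrays the deviations mirror each other, so this check cannot exclude pairing. With the replicate number as a block, 6 rather than 7 genes rose at E16.5 (Evpl lost its call), and no other call changed. Signals near the bottom of the array, as for Dsc1 and Pkp1 up to E10.5, limit what can be said of their early changes.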

Other observations

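Genes of the hair follicle, an appendage of the surface epithelium, were listed as well. From E12.5 to E18.5, 4 of the 7 tested rose and 2 fell (median 3.06), against 15.2% and 6.44% of all genes. Krt25 and Krt27, keratins of the inner root sheath, rose by 4.45 ± 0.35 and 3.54 ± 0.37, and Krt71 by 3.22 ± 0.36, while Msx2 and Lhx2 changed by -1.53 ± 0.17 and -1.21 ± 0.15. At E14.5, 0 of the 7 rose and 1 fell by limma, against 3.28% and 0.37% of all genes. At an unadjusted p under 0.05, 1 was higher and 3 were lower at that step. At E16.5 3 rose and at E18.5 against E16.5 4 rose, where 3.61% and 3.52% of all genes did. From E7.5 to E10.5 Lhx2 and Shh, which are also expressed outside the skin, rose by 3.36 ± 0.12 and 2.46 ± 0.10, 2 of the 7 against 16% of all genes. In that comparison 1 of the 7 fell, near the 7.49% of all genes.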
